A study of Mus musculus with 4 samples.

Results

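Respiratory complex I (NADH:ubiquinone oxidoreductase) is the entry point of electrons from NADH into the mitochondrial respiratory chain. Its nuclear genes carry symbols that start with Nduf, and they were followed in RNA sequencing of pancreatic islets from 2-week-old mice of the 129sv strain. Members were all genes of the deposited expression table with such a symbol and a mean estimated count of at least 5 over the libraries. Described here are 44 such genes of 22481 symbols, and none was dropped by the minimum. By role there were 6 core subunits, 29 accessory subunits, 7 assembly factors (Ndufaf) and 2 genes, Ndufa4 and Ndufa4l2, that carry the name without encoding complex I subunits.

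The comparison set 2 libraries from knockout mice, labelled Ngn3Mettls KO (KO), against 2 libraries from wild-type mice (WT), each made from more than 400 pooled islets. Endocrine progenitors of the pancreas express Ngn3 (gene symbol Neurog3), and Mettl3 and Mettl14 encode a pair of subunits of the complex that methylates adenosine in RNA. Neither the deleted gene nor the driver of the deletion is spelled out in the labels, which also do not say whether pools came from separate litters, so p-values measure the spread between these pools. Library totals ran from 4057711 to 5232237 estimated fragments. The genes behind the label's name did not pass the edgeR test (adjusted p = 0.369 for Mettl14, 0.634 for Mettl3 and 0.768 for Neurog3): Mettl14 measured 14.1 and 15.6 CPM (counts scaled to a fixed library size after TMM normalisation) in KO against 21.4 and 21.8 CPM in WT, Mettl3 18.6 and 17.2 CPM in KO against 29.3 and 17.1 CPM in WT, and Neurog3 6.33 and 9.12 CPM in KO against 4.93 and 7.19 CPM in WT. A gene total may keep reads of exons outside a deleted stretch, so these levels do not check the labels. The libraries held the hormone transcripts of islets, with summed levels of Ins1, Ins2, Iapp, Gcg, Sst and Ppy of 89744 and 103532 CPM in KO, against 101223 and 87216 CPM in WT. Single hormones differed in both directions, with 4 of 6 at an unadjusted p under 0.05 and 1 called. Ppy (log2 fold change 1.37, adjusted p = 0.0348 by edgeR), Iapp (0.52, adjusted p = 0.122) and Gcg (0.35, adjusted p = 0.314) were higher in both KO libraries, and Ins2 (-0.58, adjusted p = 0.238) was lower in both. The part of this hormone profile in the differences of the Nduf genes was not tested.

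Complex I is L-shaped. Its matrix arm oxidises NADH on a flavin and passes the electrons along iron-sulfur clusters to ubiquinone, and its membrane arm pumps protons. The core subunits carry out this catalysis and are conserved from bacteria, those of the matrix arm being encoded in the nucleus and those of the membrane arm in mitochondrial DNA. Accessory subunits surround and stabilise the core, and assembly factors join or modify intermediates of the complex without staying in it. In beta cells, oxidation of glucose through this chain raises the ATP level that triggers insulin secretion.

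The core subunits and the tested assembly factors stood on opposite sides of the comparison, and no member passed the test. All 6 core subunits were lower in both KO libraries than in both WT libraries, with a median log2 fold change, KO minus WT, of -0.27 and a range from -0.64 to -0.16. Over all 12789 genes tested, 22.3% were lower in both KO libraries, and the median log2 fold change was 0.0046. Of 29 accessory subunits 9 were lower in both KO libraries and 4 higher in both, and their median was -0.10. Among the assembly factors 6 of 7 were tested, all with a positive log2 fold change (50.7% of all genes) and a median of 0.51. Of these, 4 were higher in both KO libraries, which held for 22.7% of all genes. The filter on low counts left out Ndufaf6, which was lower in both KO libraries in FPKM. It kept Ndufaf2 only through the KO libraries, where that gene was higher. The counts of Ndufaf2 were 9.91 and 18.5 in KO, against 5.41 and 7.65 in WT. A gene kept that way was bound to lean to KO, so Ndufaf2 adds no support to the tally, the 4 or the median. The tally therefore depends on the filter, and without it 1 of 7 was negative and the median was 0.47. With edgeR's quasi-likelihood test and Benjamini-Hochberg adjustment over all genes, 0 of 43 tested members were called at an adjusted p under 0.05, where 0.227% of all genes were called, 0.0938% lower and 0.133% higher in KO. At an unadjusted p under 0.05 there were 4 members (Ndufs8, Ndufv1, Ndufb8 and Ndufaf4), against 12.6% of all genes. limma on log2(FPKM + 1) called 0 genes of any kind. It had 9 of 44 members at an unadjusted p under 0.05, against 1367 of 12546 genes. DESeq2 called 135 genes, 0 of them members. It had 0 of 44 members among its 926 genes at an unadjusted p under 0.05, and how many genes it tested is not given here. In pools of whole islets, fewer cells of a type and less RNA per cell cannot be told apart.

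**Figure D1:**
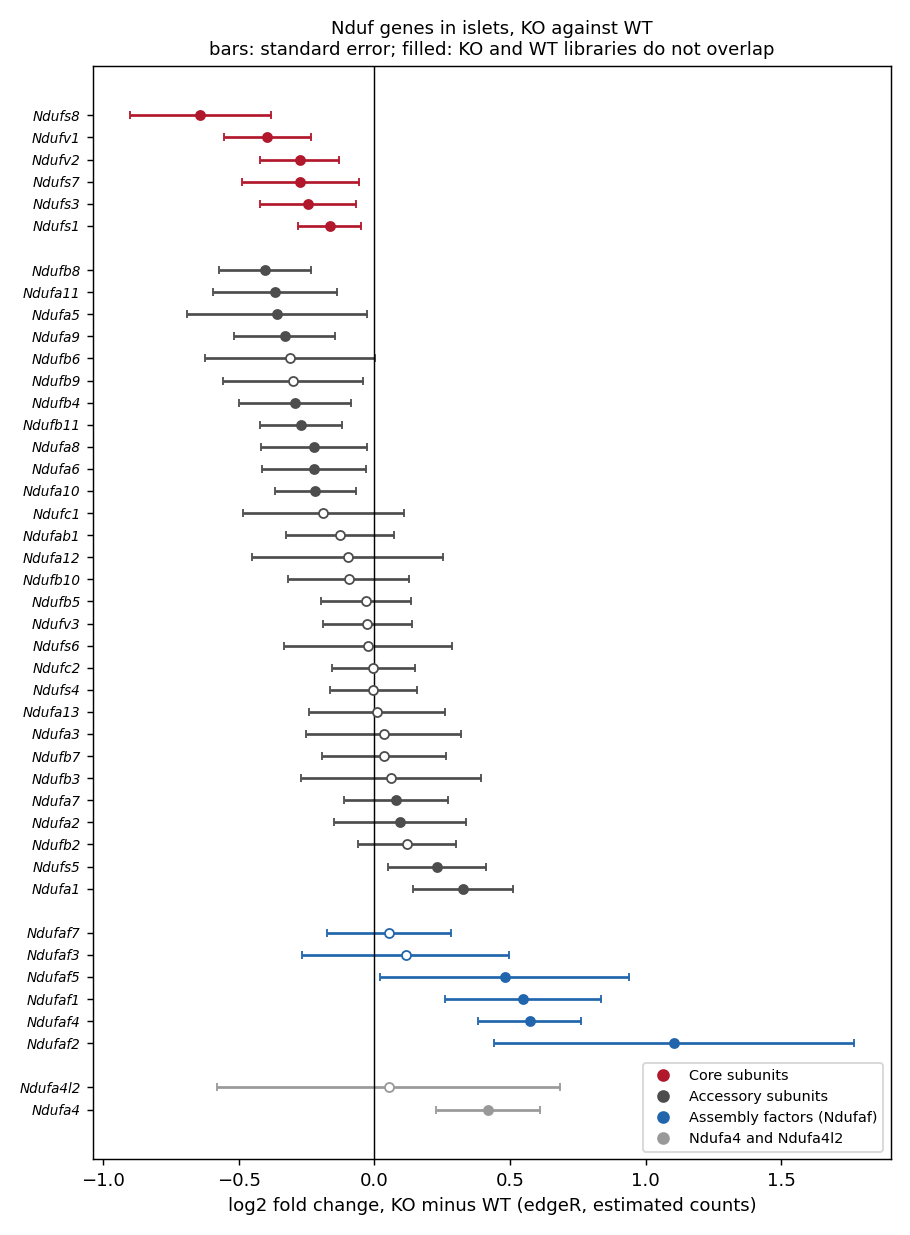
Log2 fold change, KO minus WT, of the 43 tested Nduf genes by role, on the horizontal axis, with bars for the standard error of the edgeR fit and filled points where KO and WT libraries do not overlap. The 6 core subunits all lie left of 0 with filled points, the 29 accessory subunits spread on both sides, and the 6 tested assembly factors all lie right of 0.

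The NADH-oxidising tip of the matrix arm holds 3 core subunits. Ndufv1 (chromosome 19, 4007384 to 4012806, mm10), which binds NADH and the flavin, measured 46.6 and 37.8 CPM in KO replicates 1 and 2, against 58.0 and 53.1 CPM in WT replicates 1 and 2. The lowest WT library stood above the highest KO library, and the log2 fold change was -0.40 ± 0.16 SE (adjusted p = 0.369 by edgeR). Ndufv2 (chromosome 17, 66078638 to 66101559), its iron-sulfur partner, measured 47.1 and 43.4 CPM in KO, against 51.4 and 58.2 CPM in WT (-0.28 ± 0.15 SE, adjusted p = 0.487 by edgeR). The groups stood apart here as well, by a gap smaller than the spread between the WT libraries. Ndufs1 (chromosome 1, 63143596 to 63176833), which carries several of the clusters and had the highest normalised count of the members, measured 85.5 and 84.1 CPM in KO, against 96.2 and 93.9 CPM in WT. Its libraries were close within each genotype, and its difference was the smallest of the core (-0.16 ± 0.12 SE, adjusted p = 0.607 by edgeR).

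The quinone-reducing module, where the matrix arm meets the membrane, holds the other core subunits described. Ndufs8 (chromosome 19, 3908863 to 3912774), an iron-sulfur subunit, measured 14.8 and 11.9 CPM in KO, against 24.0 and 17.8 CPM in WT. This was the largest difference of the core (-0.64 ± 0.26 SE, adjusted p = 0.373 by edgeR), on 48 to 124 estimated fragments per library. Ndufs7 (chromosome 10, 80249121 to 80256794), whose cluster hands electrons to ubiquinone, measured 18.1 and 16.7 CPM in KO, against 22.7 and 19.5 CPM in WT (-0.27 ± 0.22 SE, adjusted p = 0.652 by edgeR). In Ndufs8 and Ndufs7 every KO library lay below every WT library. Ndufs3 (chromosome 2, 90894634 to 90904827), a structural subunit of the module, measured 35.7 and 28.0 CPM in KO, against 36.2 and 39.3 CPM in WT (-0.25 ± 0.18 SE, adjusted p = 0.618 by edgeR). Here KO replicate 1 and WT replicate 1 were nearly level, and on library totals without TMM 5 of the 6 core subunits, not 6, were lower in both KO libraries. Ndufs3 also shares sequence with the transcript Gm12251, so its reads may be split.

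**Figure D2:**
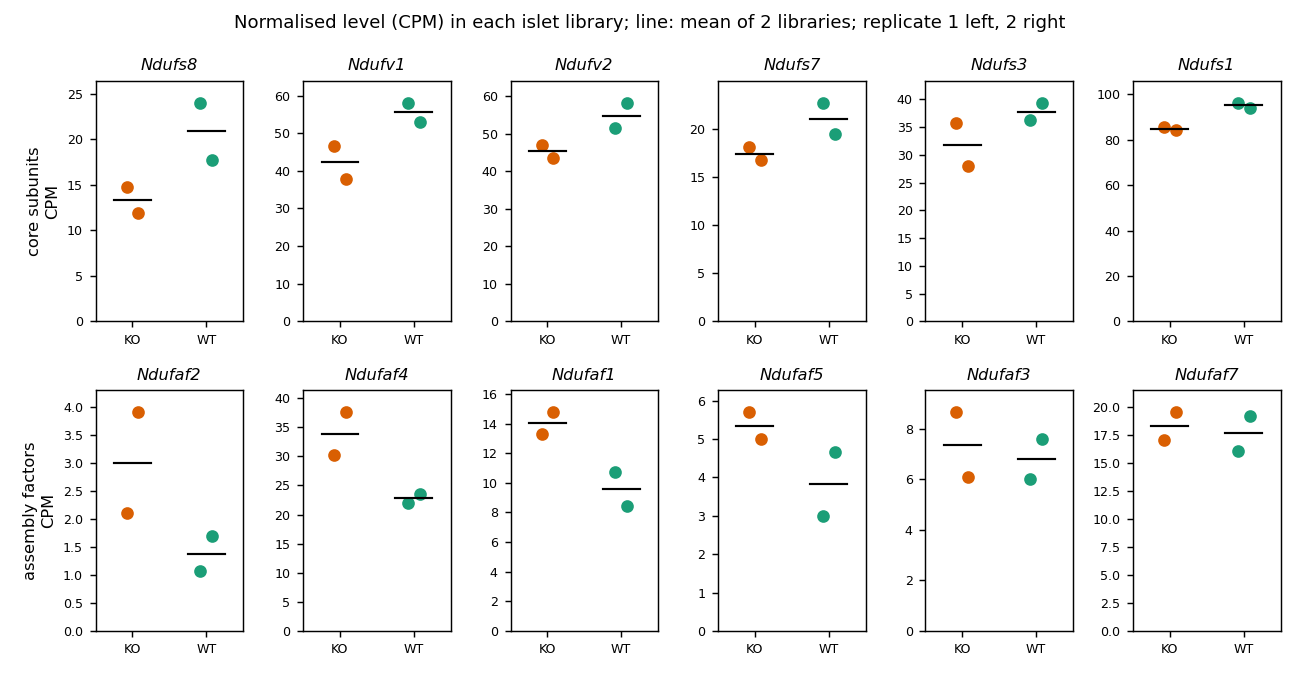
Normalised level in CPM of each core subunit (upper row) and each tested assembly factor (lower row) in the 2 KO libraries, left, and the 2 WT libraries, right, with lines at the means of 2 libraries. In every panel of the upper row both KO points lie below both WT points, and in the lower row the order is turned for Ndufaf2, Ndufaf4, Ndufaf1 and Ndufaf5 and the groups overlap for Ndufaf3 and Ndufaf7.

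Ndufs8 and Ndufv1, the core subunits with the largest differences, are neighbours on the minus strand of chromosome 19, separated by 94609 bases. No other members lie within 200000 bases of each other, and the 44 genes are spread over 16 chromosomes. Leaving out single libraries kept the sign of all 6 core subunits and moved their median between -0.39 and -0.22. The single value that moved most was that of Ndufs3, at -0.08 when KO replicate 2 was left out and -0.44 when KO replicate 1 was. Ndufs8 was at -0.42 and Ndufs7 at -0.17 without WT replicate 1, Ndufv1 at -0.25 without KO replicate 2 and Ndufv2 at -0.18 without WT replicate 2. On the FPKM scale (fragments per length of transcript and size of library), deposited beside the counts, all 6 were lower in both KO libraries (median log2 ratio of means -0.38). The same held for 22.5% of genes with a mean FPKM of at least 1. Both scales rest on the same libraries, and the count per FPKM of core subunits differed at most 1.18-fold between libraries. The FPKM values are therefore not a separate check.

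Expressed per length, summed levels of the 6 core subunits were 183 and 162 FPKM in KO, against 219.8 and 222 FPKM in WT. That is a mean of 172 ± 14.6 FPKM in KO, against 221 ± 1.83 FPKM in WT (SD, n = 2 each). Summed accessory subunits stood at 1042 and 1032 FPKM in KO, against 1150 and 1083 FPKM in WT. The 7 assembly factors together had 52.4 and 49.1 FPKM in KO, against 36.7 and 37.9 FPKM in WT. In the sums too the genotypes did not overlap, lower in KO for core and accessory subunits and higher in KO for assembly factors. For accessory subunits the gap between the genotypes was smaller than the spread between the WT libraries. FPKM totals of all genes differed too, at 414244 and 444755 in KO, against 465359 and 446174 in WT. The sums were not scaled to these totals, so a gap as small as that of the accessory subunits may not hold. Single levels overlapped between subunit classes, with mean FPKM from 17.8 (Ndufs8) to 48.0 (Ndufv2) for core and from 5.97 (Ndufa11) to 85.0 (Ndufa1) for accessory subunits. Assembly factors ran from 2.76 (Ndufaf6) to 11.5 (Ndufaf4) FPKM, below every core subunit and, apart from Ndufa11, every accessory subunit.

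**Figure D3:**
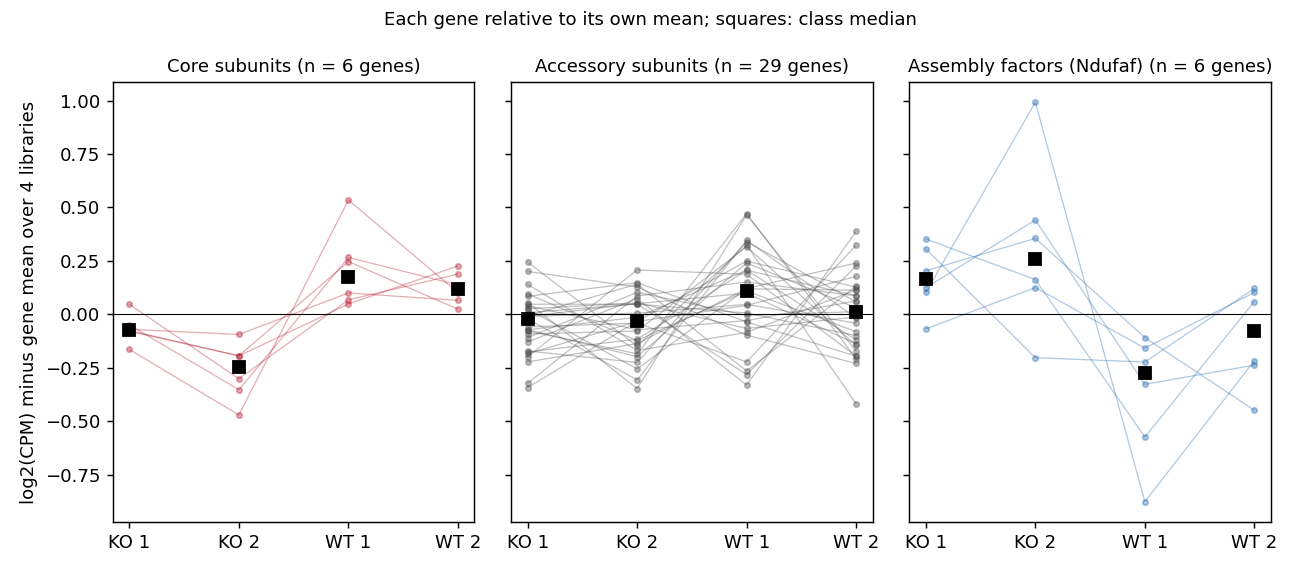
Log2 CPM of each tested gene minus its own mean over the 4 libraries, in KO replicates 1 and 2 and WT replicates 1 and 2, where thin lines join the values of a gene and squares mark the class median. Core medians are -0.07 and -0.25 in KO and 0.17 and 0.12 in WT, accessory medians -0.02 and -0.03 in KO and 0.11 and 0.01 in WT, and assembly medians 0.16 and 0.26 in KO and -0.28 and -0.08 in WT.

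Accessory subunits did not share a direction. Of the 29, 20 had a negative and 9 a positive log2 fold change, where 49.3% of all genes were negative, and 9 of 29 were lower in both KO libraries, beside the 22.3% of all genes. Among those without overlap the 5 with the largest differences were Ndufb8, Ndufa11, Ndufa5, Ndufa9 and Ndufa1. Ndufb8 (chromosome 19, 44548572 to 44555440), in the distal membrane arm, measured 29.8 and 28.7 CPM in KO, against 42.4 and 34.9 CPM in WT (-0.40 ± 0.17 SE, adjusted p = 0.388 by edgeR), and its exons overlap those of Gm20538 on the same strand. Ndufa11, a membrane-arm subunit, measured 14.4 and 17.8 CPM in KO, against 21.6 and 19.9 CPM in WT (-0.37 ± 0.23 SE). Ndufa5, bound to the quinone-reducing module, measured 6.75 and 7.17 CPM in KO, against 8.57 and 9.31 CPM in WT (-0.36 ± 0.33 SE). For these genes the groups stood apart, although the standard error of Ndufa5 was nearly as large as its difference. Ndufa9, which stabilises the junction of the arms, measured 37.35 and 30.6 CPM in KO, against 48.2 and 37.43 CPM in WT (-0.33 ± 0.19 SE), so that KO replicate 1 and WT replicate 2 were level. Its log2 fold change was -0.15 without WT replicate 1, -0.20 without KO replicate 2 and -0.50 without WT replicate 2. Ndufa11 was at -0.23 without KO replicate 1 and Ndufb8 at -0.27 without WT replicate 1.

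Ndufa1, a small membrane-arm subunit encoded on the X chromosome (37187588 to 37191163), lay on the other side. It measured 27.6 and 26.3 CPM in KO, against 22.5 and 20.5 CPM in WT (0.33 ± 0.19 SE, adjusted p = 0.515 by edgeR). It was also the member with the highest level per length, at 95.04 and 91.7 FPKM in KO, against 79.1 and 73.9 FPKM in WT. The other accessory subunits higher in both KO libraries were Ndufs5 (0.23), Ndufa2 (0.09) and Ndufa7 (0.08). Several had log2 fold changes near 0, among them Ndufs4 (log2 fold change -0.0037 ± 0.16 SE), an accessory subunit whose loss causes Leigh syndrome in people, Ndufc2 (-0.0048 ± 0.15 SE) and Ndufv3 (-0.03 ± 0.17 SE). By position, the 9 accessory subunits of the matrix arm had a median of -0.03 and the 19 of the membrane arm -0.10. The core genes, which lie in the matrix arm as well, had a median of -0.27, and the difference between these medians was not tested. Ndufab1, the mitochondrial acyl carrier protein bound in both arms, measured 38.6 and 39.1 CPM in KO, against 34.5 and 50.3 CPM in WT (-0.13 ± 0.20 SE).

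The assembly factors with the largest differences act at different steps. Ndufaf4 (chromosome 4, 24898083 to 24905001), which with Ndufaf3 binds early intermediates of the matrix arm, measured 30.2 and 37.6 CPM in KO, against 22.1 and 23.5 CPM in WT (0.57 ± 0.19 SE, adjusted p = 0.291 by edgeR, the lowest among the members). Ndufaf1 (chromosome 2, 119655446 to 119662827), part of the assembly complex of the membrane arm, measured 13.3 and 14.8 CPM in KO, against 10.7 and 8.46 CPM in WT (0.55 ± 0.29 SE, adjusted p = 0.483 by edgeR). For both genes the KO libraries lay above the WT libraries. Ndufaf2, which acts late when the NADH-oxidising module is added, measured 2.11 and 3.91 CPM in KO, against 1.07 and 1.69 CPM in WT (1.11 ± 0.66 SE, adjusted p = 0.538 by edgeR). It rested on 11 and 16 estimated fragments in KO and 6 and 7 in WT, and leaving out KO replicate 2 gave a log2 fold change of 0.60. Ndufaf5, which modifies Ndufs7, measured 5.70 and 4.996 CPM in KO, against 2.998 and 4.65 CPM in WT (0.48 ± 0.46 SE). Its log2 fold change was 0.19 without WT replicate 1 and 0.83 without WT replicate 2. For Ndufaf4 and Ndufaf5 the count per FPKM differed between libraries, by 1.40-fold and 1.51-fold.

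The remaining assembly factors did not share that pattern. Ndufaf3 measured 8.65 and 6.08 CPM in KO, against 5.997 and 7.61 CPM in WT (0.11 ± 0.38 SE), and Ndufaf7, a methyltransferase of assembly, 17.1 and 19.5 CPM in KO, against 16.1 and 19.2 CPM in WT (0.05 ± 0.23 SE). In both the genotypes overlapped. Ndufaf6 was too low for the test and lay on the other side, with 2.77 and 1.33 FPKM in KO, against 3.89 and 3.04 FPKM in WT, on 8 and 4 estimated fragments in KO and 22 and 7 in WT. With it, 6 of 7 assembly factors were higher and 1 lower in mean FPKM. With single libraries left out, the median of the assembly factors ran from 0.35 to 0.40, and 1 or 2 of them were negative, where Ndufaf6 is tested too without KO replicate 1, KO replicate 2 or WT replicate 2. No test compared the classes with each other, since genes of a class share the same 4 libraries.

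To show the sequence in front of genes whose values lay on opposite sides, the 150 bases before the start of transcription are given, from RefSeq on GRCm38.p6 (mm10), for core subunits Ndufs8 (chr19:3912775-3912924, minus strand) and Ndufv2 (chr17:66101560-66101709, minus strand) and for assembly factors Ndufaf4 (chr4:24897933-24898082, plus strand) and Ndufaf1 (chr2:119662835-119662984, minus strand). They are written 5′ to 3′ along the gene, and capitals mark letters of a searched NRF1 or ETS motif. Ndufs8 has the ETS letters too, outside the printed bases, so the capitals do not separate the classes.
Ndufs8: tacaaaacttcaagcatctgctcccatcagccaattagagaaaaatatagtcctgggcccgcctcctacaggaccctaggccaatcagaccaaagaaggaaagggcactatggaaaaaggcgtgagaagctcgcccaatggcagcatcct
Ndufv2: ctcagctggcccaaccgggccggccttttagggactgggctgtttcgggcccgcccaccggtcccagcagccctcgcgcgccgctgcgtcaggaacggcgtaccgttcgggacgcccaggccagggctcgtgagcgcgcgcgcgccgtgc
Ndufaf4: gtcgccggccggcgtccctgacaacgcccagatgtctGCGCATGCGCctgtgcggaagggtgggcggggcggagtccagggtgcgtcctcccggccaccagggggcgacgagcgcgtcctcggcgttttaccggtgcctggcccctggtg
Ndufaf1: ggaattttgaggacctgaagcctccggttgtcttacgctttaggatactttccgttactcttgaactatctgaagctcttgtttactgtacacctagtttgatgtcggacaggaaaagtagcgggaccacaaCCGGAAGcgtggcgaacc

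NRF1 and the ETS factor GABP are known activators of nuclear genes for mitochondria. Windows from 250 bases before to 50 after the start were searched on both strands for GCGCATGC (part of the palindromic NRF1 motif), CCGGAAG (ETS), AAGATGGCG (YY1), GGGCGG (SP1) and AAGGTCA (ERR), and 39 of 44 members had a window. Overlap between motifs was allowed. The NRF1 letters were in 5 of 39 members (12.8%), Ndufa11, Ndufa6, Ndufa8, Ndufaf4 and Ndufaf5, against 3.05% of all 27025 genes with a window. The YY1 letters were in 5 members (12.8%) against 1.64%, the ETS letters in 5 (12.8%) against 9.93%, the SP1 letters in 20 (51.3%) against 38.2% and the ERR letters in 3 (7.69%) against 5.38%. By class the NRF1 letters were in 0 of 5 core, 3 of 27 accessory and 2 of 6 assembly windows, and the ETS letters in 2, 2 and 1. A match is a run of letters and not a bound site.

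Regulators of mitochondrial genes did not share a direction. Of 13 listed and tested, 6 had a negative and 7 a positive log2 fold change (median 0.01), and 0 were called by edgeR, with 1 at an unadjusted p under 0.05. That was Gabpb1, which encodes the partner of GABPA, at 32.7 and 30.2 CPM in KO, against 10.9 and 18.0 CPM in WT (1.12 ± 0.26 SE, adjusted p = 0.181 by edgeR). Both KO libraries were above both WT libraries, and the adjusted p was 0.00576 without WT replicate 2 and 0.499 without KO replicate 2. Esrra, the nuclear receptor ERR alpha, measured 5.91 and 6.52 CPM in KO, against 8.57 and 11.4 CPM in WT (-0.68 ± 0.35 SE, adjusted p = 0.469 by edgeR). Gabpa itself had a log2 fold change of 0.08 and Nrf1 of 0.01. Other assembly factors and helpers outside the Nduf name gave 13 tested genes, 6 negative and 7 positive, with none called by edgeR or at an unadjusted p under 0.05. The largest differences were those of 2410015M20Rik (0.35 ± 0.21 SE), whose role is not described here, and Acad9 (0.32 ± 0.16 SE), an assembly partner of Ndufaf1, at 46.4 and 47.4 CPM in KO, against 33.6 and 41.7 CPM in WT. Acad9 was at 0.16 when WT replicate 1 was left out and 0.48 when WT replicate 2 was.

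The 7 core subunits encoded in mitochondrial DNA gave no called difference with all 4 libraries in the fit. Of these, 6 had a negative log2 fold change, none was without overlap between the groups, and none was called by edgeR or at an unadjusted p under 0.05. The spread between libraries of a genotype was widest for mt-Nd4l, at 36.5 and 141 CPM in KO, against 4.50 and 319 CPM in WT, and mt-Nd3, at 44.95 and 160 CPM in KO, against 1.93 and 339 CPM in WT. In both genes replicate 2 exceeded replicate 1 in each genotype, and leaving out WT replicate 2 turned the sign of both. The order of the replicates was not particular to these genes. All genes of mitochondrial DNA together held 1.19% and 1.62% of counts in KO replicates 1 and 2, against 1.08% and 1.73% in WT replicates 1 and 2. mt-Nd1 measured 972 and 1222 CPM in KO, against 890.5 and 1082 CPM in WT (0.15 ± 0.16 SE), and mt-Nd6 99.2 and 121 CPM in KO, against 129 and 118 CPM in WT (-0.17 ± 0.14 SE).

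Ndufa4, once counted in complex I and now assigned to cytochrome c oxidase, measured 28.7 and 35.6 CPM in KO, against 25.5 and 22.6 CPM in WT (0.42 ± 0.19 SE, adjusted p = 0.426 by edgeR). Both KO libraries lay above both WT libraries. Its hypoxia-induced relative Ndufa4l2 was low, at 4.43 and 1.74 CPM in KO, against 3.64 and 2.33 CPM in WT, and overlapped between the genotypes.

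Counts and FPKM did not always tell the same difference. The ratio of count to FPKM of a gene can change with the transcript lengths used in each library, so it need not be fixed. It differed over 1.2-fold between libraries in 9 of 44 members, for reasons that were not tested. Opposite signs on the scales were found in 6 of 43 tested members. In Ndufb2 the log2 fold change was 0.12 ± 0.18 SE on counts, at 38.4 and 42.6 CPM in KO, against 32.1 and 42.3 CPM in WT, while FPKM was lower in both KO libraries, at 38.6 and 31.8 FPKM in KO, against 44.0 and 38.7 FPKM in WT. Ndufc1 was negative on counts (-0.19) and positive on FPKM (0.12 as log2 ratio of means). Assembly factors Ndufaf4, Ndufaf5 and Ndufaf6 were among the 9, and no core subunit was. The listed span exceeded the annotated gene 1.5 times in 11 members. Among them were core subunits Ndufs7, Ndufs3 and Ndufs1, with spans of 87.6, 23.9 and 6.57 times the gene. Whether their values hold reads of other genes in these spans was not tested. Exons overlapped another gene on the same strand in 3 members and on the opposite strand in 16. A further feature, at least 150 bases shared at 95% identity or more with a transcript of another gene, was found in 13, such as Ndufb4 with Ndufb4c. Kept free of all these features were 3 core subunits, Ndufs8, Ndufv1 and Ndufv2, all lower in KO (median -0.40), 8 accessory subunits (median -0.02) and, of the assembly factors, Ndufaf1 (0.55).

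**Figure D4:**
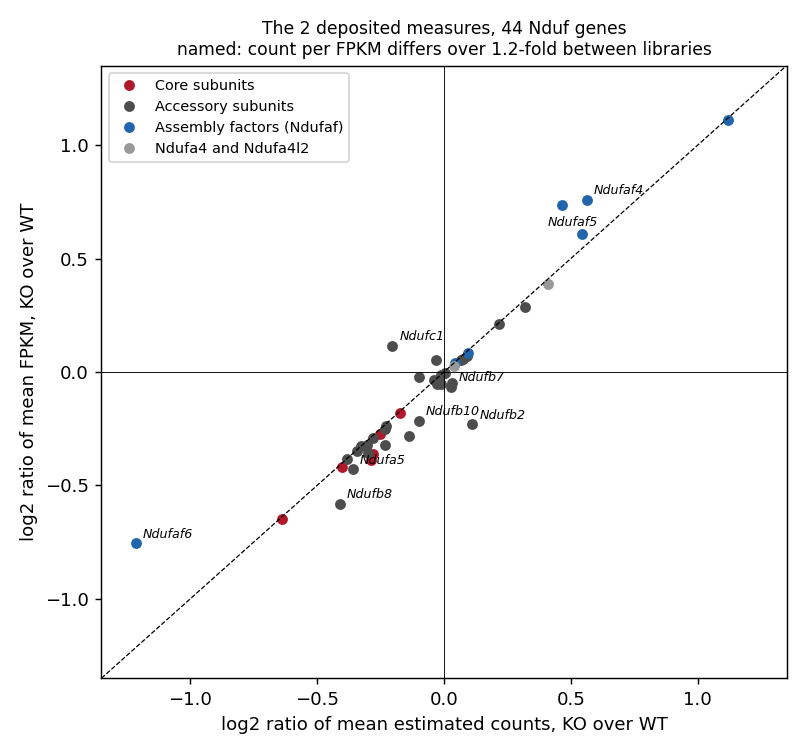
Log2 ratio of group means, KO over WT, from estimated counts (horizontal) and from FPKM (vertical) for the 44 Nduf genes, with a dashed line of equality and names where count per FPKM differs over 1.2-fold between libraries. Core subunits lie in the lower left of the plot on both scales, Ndufb2 and Ndufc1 fall where the scales have opposite signs, and Ndufaf6 lies apart from the other assembly factors.

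Across the 43 tested members, Spearman's rho of log2 fold change was -0.14 with the length of the longest annotated transcript and -0.30 with mean CPM, given as a description over genes that share libraries. The median length was 1353.5 bases for core subunits, 875 for accessory subunits and 1482.5 for the tested assembly factors. Markers of other cells leaned to a side in some lists, while their summed levels overlapped between the genotypes. Of 17 tested acinar markers 16 were negative, and their sum was 4437 and 9108 CPM in KO, against 9877 and 6669 CPM in WT. All 7 tested immune markers were positive, with sums of 167 and 109 CPM in KO, against 112 and 64.1 CPM in WT. Of 7 mesenchymal markers 6 were negative, with sums of 971 and 858 CPM in KO, against 1723 and 685 CPM in WT. None of these markers was called by edgeR, with 2 acinar, 1 immune and 1 mesenchymal gene at an unadjusted p under 0.05. Ductal markers were 2 negative and 4 positive, endothelial 3 and 4, and red blood cell 4 and 1, and sums overlapped between the genotypes in each. Ucp1 of brown fat and Ckm of muscle were listed at 0 in all libraries, and no other marker was. The part of these cells in the differences of the Nduf genes was not tested. With acinar, red blood cell and hormone markers left out of the totals the core median was -0.27. That setting changes only the totals and keeps the Nduf reads of all cells, so it cannot decide the part of these cells. Immune and mesenchymal markers stayed in it.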

How the data were processed

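Total RNA from islets was depleted of ribosomal RNA and sequenced from strand-marking libraries as paired ends of 150 bases, per the labels' protocols. The submitters' processing notes name cutadapt 1.9.3, HISAT2 2.0.4, Cufflinks, Cuffdiff and the build mm10. Annotation and options of counting: not given in the sources used here. Without a stated strand setting reads of overlapping genes cannot be told apart. The deposited table holds an estimated count and an FPKM per gene and library, per the file headers. The estimated counts the authors deposited had been scaled per library: 92.5% to 93.2% were whole multiples, within 0.1, of a step between 0.901 and 1.15, and totals divided by the step are the depths given.

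Rows were summed for 79 symbols with more than 1 row, and 1 empty line was not used. Estimated counts were rounded to whole numbers, filtered with filterByExpr (12789 genes), normalised with TMM and tested with edgeR 4.0.16 in R 4.3.3 (quasi-likelihood, two-sided, genotype as the only term, Benjamini-Hochberg over all genes). The common biological coefficient of variation was 16.0%. limma 3.58.1 on log2(FPKM + 1), DESeq2 1.42.0 and other settings were alternatives. Fold changes on log2(FPKM + 1) understate those of low genes. Gene positions and exon overlaps came from GENCODE on the same build, and similar transcripts from blastn 2.17.0. Named are the core subunits, up to 5 members per other class with the largest differences without overlap, the highest and lowest by FPKM, and the 2 largest differences of each other list. Other genes were named after their values were seen. Of the 45 genes that met the rule 1 is not reported here and is in no count, median or sum over members, while it stayed in the fit over all genes. Members, roles and lists were chosen with earlier results of these data known.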

Additional observations from a re-analysis of the deposited data

How the results depend on the processing

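Of the class results, the sign of all 6 core subunits held in each of the 14 alternatives, and 0 members were called in any of them. Of the assembly factors 0 to 2 and of the accessory subunits 16 to 21 were negative across the alternatives, with 16 without WT replicate 1. The core median was -0.37 with limma on log2(FPKM + 0.1) and -0.38 as a log2 ratio of mean FPKM, an alternative chosen after seeing the data, and ran from -0.39 to -0.22 with single libraries left out. Likewise the accessory median ran from -0.147 to -0.0744 and the assembly median from 0.35 to 0.40. Over all tested members the median was -0.03, and it was -0.0747 without the filter on low counts, -0.069 with DESeq2, -0.0613 with limma on log2(FPKM + 1), filtered or not, -0.0762 with limma on log2(FPKM + 0.1), and -0.158 to -0.0744 with single libraries left out. Members lower in both KO libraries numbered 15, where 22.3% of all genes were. One of these, Ndufa6, was counted on a near tie, at 31.929 CPM in KO replicate 2 and 31.934 CPM in WT replicate 2. The number was 13 on library totals without TMM and 15 to 18 in the other alternatives with all libraries. It was 18 to 24 with single libraries left out, where fewer libraries leave fewer ways to overlap. The shares over all genes in these alternatives are not given here.

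All genes called numbered 29, and 135 with DESeq2, 0 with limma in each of its forms (1348 to 1541 at an unadjusted p under 0.05), and 10 to 245 with single libraries left out, where the lone library of a genotype is assumed to vary like the others. With the replicate number as a block 214 genes were called and no member, and differences between replicates correlated at 0.163 between the genotypes, and whether a number marks a shared batch is not given in the labels and was not tested. Of 294 values of the 21 named genes 9 turned their sign, all of mt-Nd4l and mt-Nd3. mt-Nd4l was at 0.84, 0.86 and 0.84 with limma on log2(FPKM + 1), log2(FPKM + 0.1) and without filter, and at 4.30 without WT replicate 2 (lowest -2.15, without KO replicate 2). mt-Nd3 was at 1.61, 1.67 and 1.61 in the same order, at 0.23 with the replicate block and at 5.72 without WT replicate 2 (lowest -1.93, without KO replicate 2). The cause of these changes was not tested. With 2 libraries a genotype and 48 to 498 estimated fragments per core subunit, differences of the size seen in the core, up to -0.64 with SE 0.26, did not pass the test.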
